A study of Mus musculus with 8 samples.

Results

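Interferon-stimulated genes are genes that cells switch on when an interferon binds its receptor. The 37 described here were a set list of mouse genes, matched by symbol or Ensembl identifier, and all 37 were found among the 55488 genes counted in every library. All 37 also passed the filter on low counts that left 16908 genes for testing, so none drops out of the counts below. The samples were dorsal skin of mice aged 3 months, either wild type or carrying a TPH1 knockout, with 4 libraries of each genotype and no treatment named. TPH1 is the tryptophan hydroxylase that makes serotonin outside the brain. The labels name no strain, sex, litter or knockout allele, and both genotypes are whole skin, so a lower level in a library can mean fewer cells of a type or less RNA per cell, and bulk counts cannot tell these apart.

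Type I and type III interferons act through receptors that activate the kinases Jak1 and Tyk2, which phosphorylate Stat2. With Irf9 it takes part in a factor that binds the interferon-stimulated response element in promoters, whereas interferon gamma acts mainly through the gamma-activated site. The genes switched on encode sensors of viral nucleic acids, enzymes and binding proteins that block viral RNA, membrane proteins that block viral entry, and the immunoproteasome that cuts peptides for presentation. In skin, keratinocytes, fibroblasts and resident immune cells all respond to interferon.

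Promoter windows from RefSeq on GRCm38.p6, each running from 250 bases before to 50 bases after an annotated start, were at hand for 29 of the 37 genes. The core of the response element, GAAANNGAAA on either strand, lay in a window of 16 of these 29 genes (55.2%), against 3.99% of the 27025 genes and 3.44% of the 32851 windows in the table. The gamma-activated core, TTCNNNGAA, which reads the same on both strands, lay in 9 of 29 (31.0%), against 9.55% of genes and 8.30% of windows. A match is a run of letters, and binding was not measured. The stretches of 60 bases below come from members that differ in how they behaved in these libraries, and capitals mark each response element core in them. Cores that overlap run together.

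Isg15 (chr4:156200856-156200915, minus strand): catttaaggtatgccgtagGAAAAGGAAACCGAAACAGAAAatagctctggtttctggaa
Ifit1 (chr19:34640769-34640828, plus strand): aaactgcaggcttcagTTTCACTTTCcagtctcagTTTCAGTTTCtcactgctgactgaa
Ifit3 (chr19:34583365-34583424, plus strand): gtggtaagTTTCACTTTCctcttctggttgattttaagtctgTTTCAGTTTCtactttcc
Ifit3b (chr19:34607761-34607820, plus strand): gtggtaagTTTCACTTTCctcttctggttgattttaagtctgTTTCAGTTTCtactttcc
Oas1a (chr5:120907528-120907587, minus strand): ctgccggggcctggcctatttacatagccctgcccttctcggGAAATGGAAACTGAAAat
Oas1g (chr5:120887614-120887673, minus strand): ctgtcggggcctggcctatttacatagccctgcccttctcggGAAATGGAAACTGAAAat
Bst2 (chr8:71537565-71537624, minus strand): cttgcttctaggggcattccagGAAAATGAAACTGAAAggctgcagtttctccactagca
Stat2 (chr10:128270251-128270310, plus strand): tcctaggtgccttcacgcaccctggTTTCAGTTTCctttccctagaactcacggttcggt
Ifitm2 (chr7:140955988-140956047, minus strand): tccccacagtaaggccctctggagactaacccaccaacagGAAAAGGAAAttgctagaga

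Isg15 held 3 cores that overlap, and Ifit1 held 2 that do not. The stretches of the neighbouring genes Ifit3 and Ifit3b differed at 0 of 60 bases, and those of Oas1a and Oas1g at 1 of 60. These pairs are close copies, so reads can be divided between them in counting and their separate levels are uncertain. The estimated counts of Ifit1, Ifit3, Ifit3b, Oas1a, Oas1g, Irf1, Gbp7 and Psmb9 were not whole in at least 7 of the 8 libraries, as when reads match more than 1 gene.

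Before any comparison, the gene targeted in the knockout was checked. Tph1 (ENSMUSG00000040046) had 18, 0, 27 and 11 counts in wild type replicates 1 to 4 and 0 in each of the 4 knockout libraries, where 3 counts, the limit that a count of 0 allows, equal 0.125 to 0.139 CPM, the unit of counts scaled to the size of each library. The library labelled wild type replicate 2 therefore cannot be told from a knockout by this gene, and results are given without it where it matters. Total expected counts per library ran from 20531601 to 24678638. Of the 16908 genes tested, 90 were lower in knockout (0.532%) and 20 were higher (0.118%) at a Benjamini-Hochberg adjusted p under 0.05 in edgeR's quasi-likelihood test.

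Of the interferon-stimulated genes, 1 fell in knockout skin and 0 rose. The one that fell was Ifitm6, a member of the interferon-induced transmembrane family, and its share of the list, 2.7%, stands against the 0.532% of all genes called lower. Most of the other members had lower means in knockout skin without passing the test. The fold change was negative in 33 of 37 (89.2%, against 46.9% of all genes tested), with a median log2 fold change, knockout over wild type, of -0.55 against 0.03 over all genes. At an unadjusted p under 0.05, 15 members were lower (40.5%, against 9.37% of all genes) and 0 were higher (against 8.26%). In 8 members (21.6%, against 5.65% of all genes) every knockout library lay below every wild-type library, and in 0 members (against 5.39%) every knockout library lay above. DESeq2's Wald test called 4 members lower at an adjusted p under 0.05 (10.8%, against 4.00% of all genes), namely Ifitm6, Irf7, Usp18 and Ifitm2, and 0 higher (against 2.13%).

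A single wild-type library stood above the rest. Wild type replicate 1 was the highest of the 8 libraries for 27 of the 37 genes (73.0%), although it was highest for only 16.3% of all genes tested. Its level exceeded the mean of the other 3 wild-type libraries by more than 1.5 times in 26 members, and the median ratio was 1.85 in members and 0.985 in all genes. At the other end, knockout replicate 4 was the lowest library for 15 members (40.5%, against 10.2% of all genes). The mean of log2(CPM + 1) over the 37 genes was 4.15, 3.44, 3.31 and 3.43 in wild type replicates 1 to 4 and 3.24, 3.24, 3.24 and 2.91 in knockout replicates 1 to 4. The wild-type libraries averaged 3.58 ± 0.38 (SD, n = 4), or 3.39 ± 0.070 (SD, n = 3) without replicate 1, and the knockout libraries 3.16 ± 0.16 (SD, n = 4). The groups did not overlap on this mean level with or without replicate 1, though wild type replicate 3 lay close to knockout replicates 1 to 3. On the share of all counts held by members outside the Ifitm family and the immunoproteasome they did overlap. That share was 0.0574%, 0.0311%, 0.0324% and 0.0290% in wild type replicates 1 to 4. In knockout replicates 1 to 4 it was 0.0247%, 0.0299%, 0.0323% and 0.0217%.

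**Figure D1:**
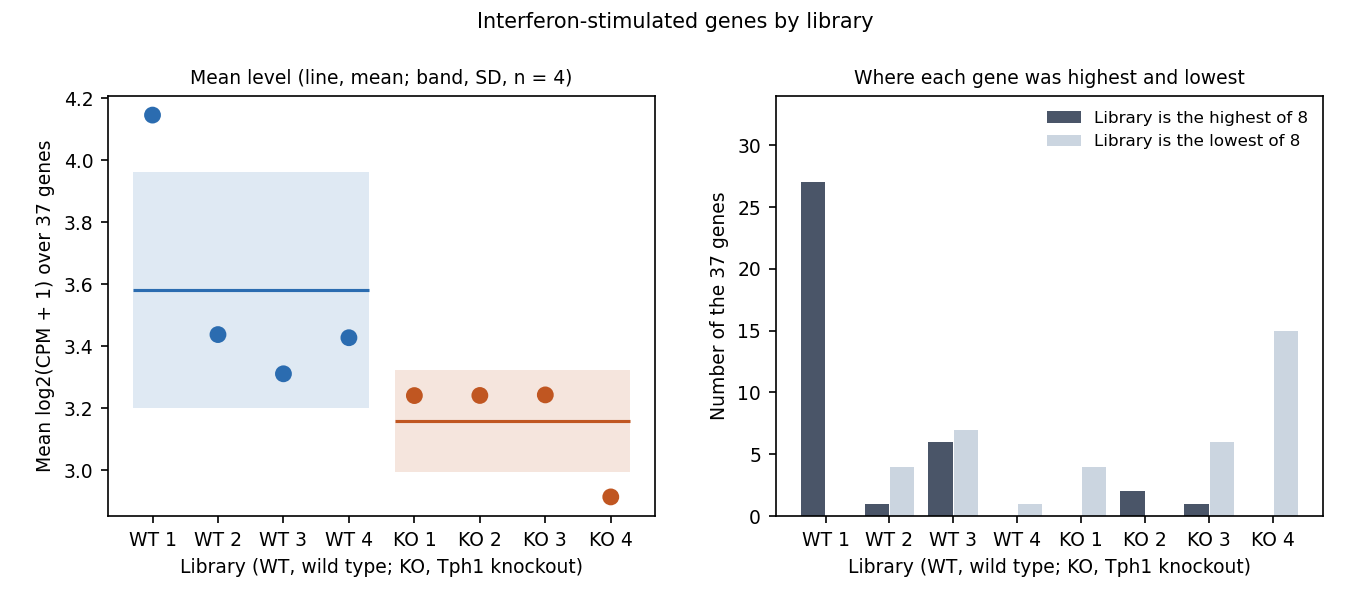
Left, the mean log2(CPM + 1) over the 37 genes in each library (points), with the group mean (line) and SD (band, n = 4). Right, the number of the 37 genes for which each library was the highest (dark bars) or the lowest (light bars) of the 8. Wild type replicate 1 was highest for 27 genes and knockout replicate 4 lowest for 15.

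Leaving out wild type replicate 1 moved the median fold change of the members toward 0 by more than leaving out any other library. The median log2 fold change of the members was then -0.27, against -0.65 to -0.49 in the 7 fits without 1 other library. The number of negative members dropped from 33 to 23, and 10 members (27.0%, against 9.74% of all genes) changed sign. Of the 33 members that were negative with all libraries, 10 were positive without replicate 1, 6 were negative at under 0.5 of their size, and 17 were negative at 0.5 of their size or more. The unadjusted p was under 0.05, with a lower level, in 9 members (24.3%, against 9.16% of all genes in that fit), and 0 passed after adjustment. That count was lower still, at 7 members, without knockout replicate 4, and 11 to 17 without 1 of the other 6 libraries. Without the library labelled wild type replicate 2, the median was -0.63 and 35 members were negative. Over all 8 such fits, 22 members were negative in every one, 2 were positive in every one (Oas1b and Gbp7), and 13 took both signs. The matching shares over all genes were not computed, so these counts describe the members only.

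**Figure D2:**
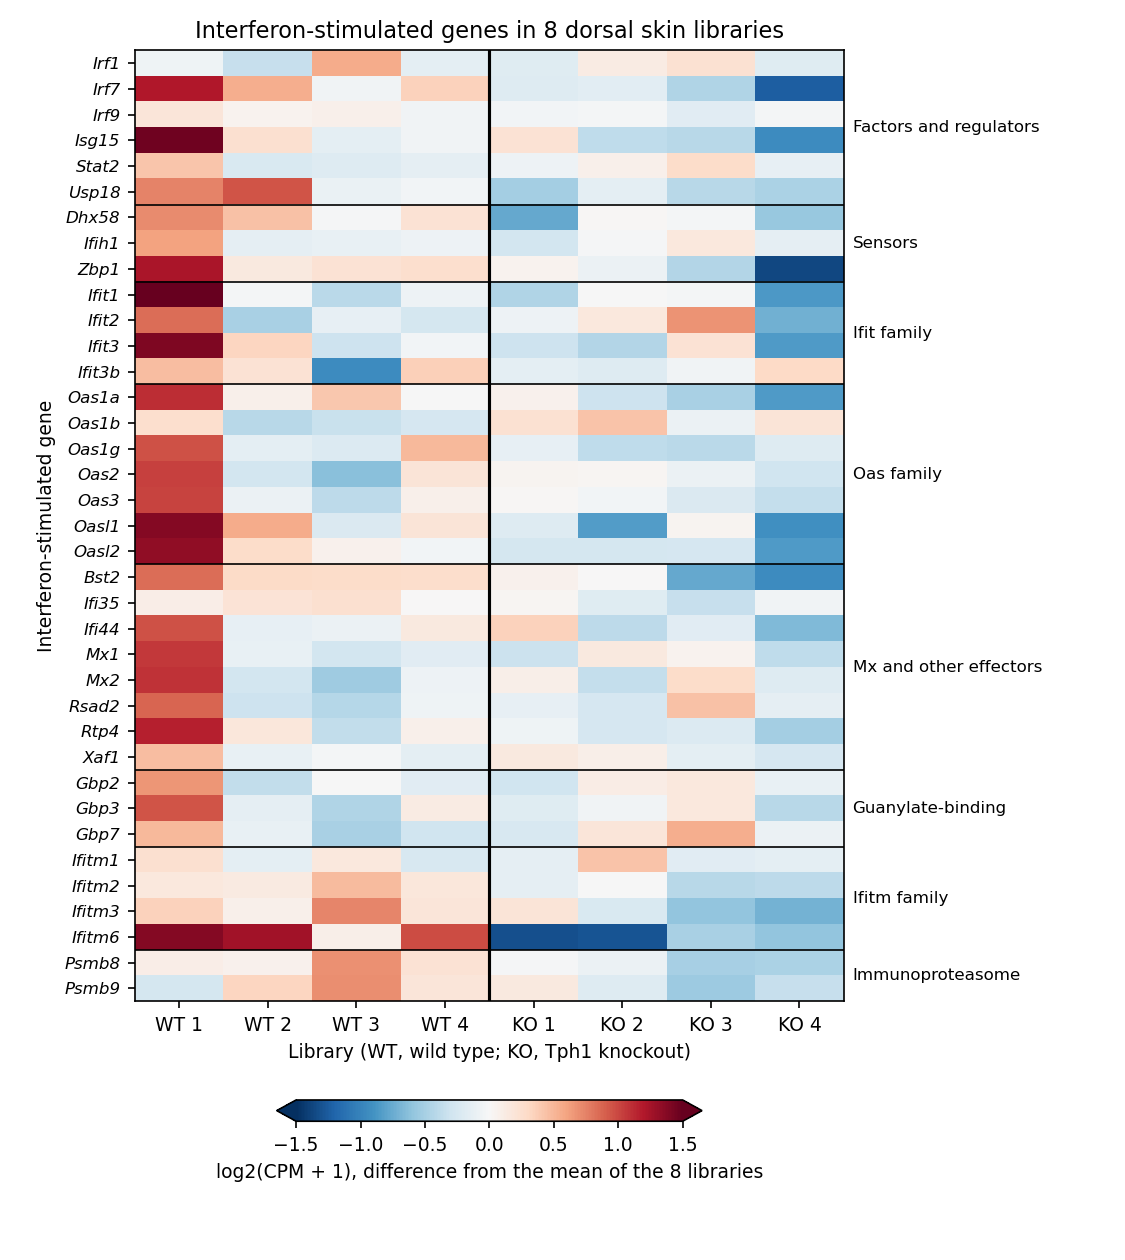
log2(CPM + 1) of each of the 37 genes (rows, grouped by role) in each of the 8 libraries (columns), as the difference from that gene's mean over the 8 libraries. The column of wild type replicate 1 is red for most genes but pale for Ifitm2, Ifitm3, Psmb8 and Psmb9, where wild type replicate 3 is darker.

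The Ifitm proteins sit in cell membranes and hinder viruses from entering the cytosol. Their genes lie side by side on chromosome 7, and the 4 listed here, with Irf7, are about 94.3 to 94.6 Mb from Tph1. Ifitm6 (ENSMUSG00000059108, chr7:141015699-141017924, minus strand) was measured at 71.7, 66.2, 28.8 and 54.2 CPM in wild type replicates 1 to 4 and at 10.3, 10.5, 19.0 and 17.7 CPM in knockout replicates 1 to 4. Every knockout library lay below every wild-type library, and wild type replicate 3 came nearest to the knockouts. The mean was 55.2 ± 19.1 CPM (SD, n = 4) in wild type and 14.4 ± 4.65 CPM (SD, n = 4) in knockout, so the level in wild type was 3.85-fold that in knockout. The log2 fold change was -1.94 ± 0.31 (SE), with an edgeR adjusted p of 0.0361. Without wild type replicate 1 the fold change of Ifitm6 was -1.79, the smallest of the 8 fits that left out 1 library, and the largest was -2.16. The call held in edgeR without wild type replicate 3 (adjusted p = 0.0177) or knockout replicate 3 (0.0413), and was lost without any one of the other 6 libraries (adjusted p of 0.0609 to 0.138). It was also lost with no filter on low counts (adjusted p = 0.0546), whereas DESeq2 gave Ifitm6 an adjusted p of 5.43e-07.

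The most abundant members were also of this family, and they were not highest in wild type replicate 1. In TPM, a scale of transcript abundance that accounts for gene length, Ifitm2 had 475 in wild type and 333 in knockout, and Ifitm3 had 454 and 275. Ifitm6 had 139 and 36.1 TPM, and Ifitm1 only 11.3 and 11.2. Counts of Ifitm2 were 176, 173, 218 and 177 CPM in wild type and 143, 157, 118 and 119 CPM in knockout. All knockout libraries of Ifitm2 were below all wild-type libraries, with wild type replicate 3 the highest, and the log2 fold change was -0.47 ± 0.14 (SE, edgeR adjusted p = 0.159; DESeq2 adjusted p = 0.0409). Ifitm3 stood at 184, 152, 241 and 164 CPM in wild type and 166, 123, 95.1 and 88.2 CPM in knockout. Knockout replicate 1 lay within the wild-type range of Ifitm3, and the log2 fold change was -0.65 ± 0.23 (SE, edgeR adjusted p = 0.20). Ifitm1 was at 4.84, 3.47, 4.54 and 3.20 CPM in wild type and 3.52, 5.66, 3.40 and 3.46 CPM in knockout. The groups overlapped throughout for Ifitm1, with means of 4.01 ± 0.80 and 4.01 ± 1.10 CPM (SD, n = 4 each). Without wild type replicate 1 the fold changes of Ifitm2 and Ifitm3 were -0.49 and -0.66, close to their values with it. Of the family members outside the list, Ifitm7 had no count in any library, Ifitm10 had a log2 fold change of -0.18, and Ifitm5, at 1.02 ± 0.33 CPM in wild type and 0.398 ± 0.111 CPM in knockout (SD, n = 4 each), one of -1.34 ± 0.41 (SE, edgeR adjusted p = 0.157).

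The immunoproteasome genes, which encode catalytic subunits that replace those of the standard proteasome, were, like Ifitm3, highest in wild type replicate 3. Psmb8 stood at 52.0, 50.7, 78.8 and 56.3 CPM in wild type and 48.0, 45.7, 34.1 and 34.5 CPM in knockout. All 4 knockout libraries were lower, by a log2 fold change of -0.55 ± 0.18 (SE) that did not pass (edgeR adjusted p = 0.179). Psmb9 stood at 25.9, 39.6, 51.7 and 35.8 CPM in wild type and 34.9, 27.4, 21.2 and 24.6 CPM in knockout. Here wild type replicate 1 was the lowest of its group and lay among the knockouts. The fold change of Psmb9 was -0.50 ± 0.22 (SE, edgeR adjusted p = 0.275) and was larger, at -0.65, without that library. Wild type replicate 3, the highest library for Ifitm2, Ifitm3, Psmb8, Psmb9, Ifi35 and Irf1, also had the highest sum of 18 immediate early genes, which respond to tissue handling, at 17225 CPM. That sum ran from 3013 to 17225 CPM in wild type and from 2092 to 5171 CPM in knockout, with 16 of 18 genes lower at an unadjusted p under 0.05 in edgeR (against 9.37% of all genes). Of these 18, 1 was called lower, the nuclear receptor Nr4a1 (edgeR adjusted p = 0.0324), and the part of tissue handling in the result was not tested.

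Among the 6 factors and regulators, 5 had negative fold changes and 0 passed the edgeR test. Irf7, a transcription factor that amplifies type I interferon production, stood at 36.8, 23.0, 14.8 and 19.9 CPM in wild type and 13.3, 13.8, 11.1 and 5.96 CPM in knockout. The groups did not overlap, though wild type replicate 3 and knockout replicate 2 differed by little. The log2 fold change of Irf7 was -1.10 ± 0.32 (SE, edgeR adjusted p = 0.146; DESeq2 adjusted p = 0.0260), and -0.80 without wild type replicate 1. Usp18, a protease that removes Isg15 from proteins and damps the type I receptor, stood at 15.01, 17.5, 7.91 and 8.33 CPM in wild type and 5.74, 7.66, 6.14 and 5.87 CPM in knockout. It was highest in the library labelled wild type replicate 2, not in replicate 1, and the nearest libraries of the groups lay close together. The fold change of Usp18 was -0.94 ± 0.28 (SE, edgeR adjusted p = 0.152; DESeq2 adjusted p = 0.0313), and -0.82 without replicate 1.

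Stat2 and Irf9, which belong to the response element factor, did not pass the test, and their fold changes were near 0. Stat2 stood at 41.4, 26.1, 26.7 and 27.9 CPM in wild type and 29.2, 32.4, 37.5 and 28.2 CPM in knockout. Replicate 1 alone lifted the wild-type mean of Stat2, and the log2 fold change moved from 0.06 ± 0.17 (SE, edgeR adjusted p = 0.884) to 0.24 without it. Irf9 stood at 37.5, 34.4, 35.0 and 31.9 CPM in wild type and 32.1, 32.5, 29.2 and 32.4 CPM in knockout. Its fold change was -0.14 ± 0.10 (SE, edgeR adjusted p = 0.495), the smallest error of the list. Irf1, the factor most closely tied to interferon gamma, had means of 22.3 ± 6.85 and 21.7 ± 3.33 CPM (SD, n = 4 each). Isg15, the ubiquitin-like protein that is joined to other proteins, stood at 16.1, 6.35, 4.63 and 4.995 CPM in wild type and 6.25, 3.79, 3.66 and 2.23 CPM in knockout. Replicate 1 stood well above the other wild-type libraries, and the fold change of Isg15 went from -1.01 ± 0.45 (SE, edgeR adjusted p = 0.285) to -0.42 without it.

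Of the sensors of viral nucleic acid, 0 passed the test in edgeR. Zbp1, which binds nucleic acid in the Z form, stood at 11.8, 5.06, 5.39 and 5.54 CPM in wild type and 4.67, 4.16, 3.05 and 1.14 CPM in knockout. The groups did not overlap for Zbp1, with a fold change of -1.10 ± 0.44 (SE, edgeR adjusted p = 0.243) that was -0.71 without replicate 1. Ifih1, the sensor of long double-stranded RNA known as MDA5, stood at 24.5, 14.2, 14.5 and 14.9 CPM in wild type and 12.9, 15.5, 17.6 and 14.3 CPM in knockout. Apart from replicate 1, the groups of Ifih1 overlapped, and its fold change was -0.18 with that library and 0.05 without it. Dhx58, a related helicase that tunes the response of Ifih1, had means of 4.04 ± 1.08 and 2.18 ± 0.84 CPM (SD, n = 4 each) and fold changes of -0.89 ± 0.34 (SE, edgeR adjusted p = 0.224) and -0.71 without replicate 1.

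In the Ifit family, whose products bind viral RNA ends, the differences depended on the one library. Ifit1 stood at 19.5, 4.58, 3.28 and 4.41 CPM in wild type and 3.15, 4.66, 4.57 and 2.14 CPM in knockout. The other 3 wild-type libraries of Ifit1 lay within the knockout range, and without replicate 1 the fold change went from -1.13 ± 0.56 (SE, edgeR adjusted p = 0.326) to -0.17. Ifit3 likewise went from -0.86 ± 0.39 (SE, edgeR adjusted p = 0.296) to -0.34. Ifit2 had nearly equal means of 4.18 ± 2.39 and 4.19 ± 1.997 CPM (SD, n = 4 each), and a fold change of 0.48 without replicate 1. Ifit3b, whose promoter stretch is the same as that of Ifit3, had a fold change of -0.15 ± 0.34 (SE, edgeR adjusted p = 0.851) and 0.01 without replicate 1. Unlike Ifit3, it was lowest in wild type replicate 3.

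**Figure D3:**
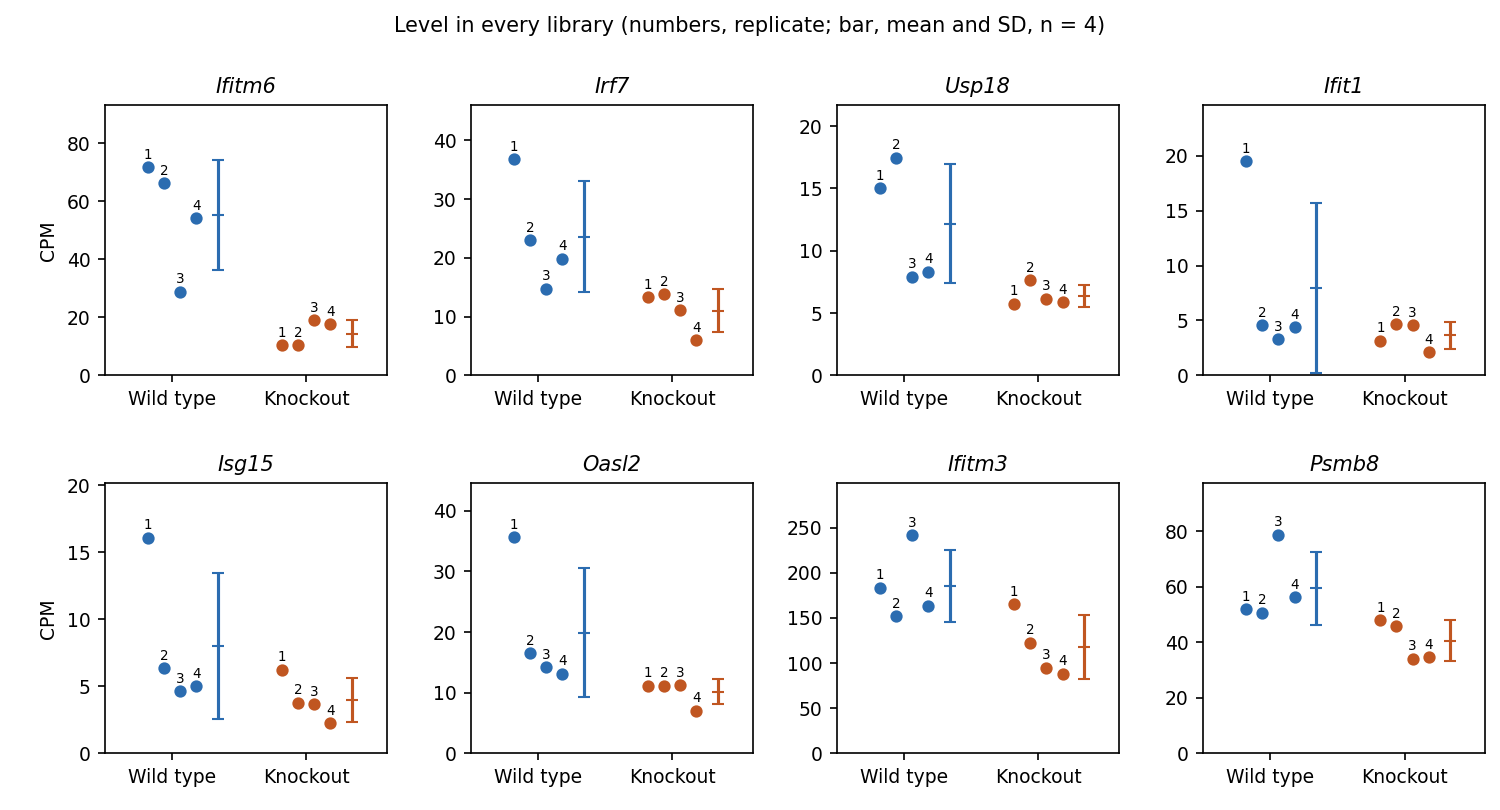
CPM in each library of 8 of the genes, with numbered points for replicates 1 to 4 and the mean and SD (bar, n = 4) beside them. Replicate 1 sets the wild-type mean of Ifit1, Isg15 and Oasl2, replicate 3 is the highest for Ifitm3 and Psmb8, and all knockout points of Ifitm6 lie below its wild-type points.

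The oligoadenylate synthetase family makes the messenger that activates RNase L, and its Oasl members are relatives, of which Oasl1 limits the translation of Irf7. Oasl1 had the largest fold change of the list after Ifitm6, at a low level. It stood at 5.97, 2.93, 1.30 and 2.07 CPM in wild type and 1.34, 0.4997, 1.74 and 0.410 CPM in knockout, with 2 of the knockout libraries inside the wild-type range. The fold change was -1.62 ± 0.59 (SE, edgeR adjusted p = 0.211), and -1.07 without replicate 1. Oasl2 stood at 35.7, 16.6, 14.2 and 13.1 CPM in wild type and 11.2, 11.2, 11.2 and 7.05 CPM in knockout. The knockouts were all lower, and the fold change of Oasl2 was -0.97 ± 0.32 (SE, edgeR adjusted p = 0.187) with replicate 1 and -0.53 without it. Oas1a, at 8.22 ± 3.57 and 4.19 ± 1.37 CPM, and Oas1g, at 2.25 ± 1.28 and 1.11 ± 0.21 CPM (SD, n = 4 each), had fold changes of -0.97 and -1.02, and of -0.63 and -0.60 without replicate 1. Oas2 and Oas3 went from -0.32 and -0.58 to 0.14 and -0.03. Oas1b went the other way, with 3.07 ± 0.92 CPM in wild type and 4.23 ± 0.76 CPM in knockout (SD, n = 4 each), a fold change of 0.46 ± 0.27 (SE, edgeR adjusted p = 0.386) and 0.69 without replicate 1.

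Among the remaining effectors, Bst2, also called tetherin, which holds budding virus at the cell surface, kept most of its difference. It stood at 30.5, 20.4, 20.3 and 20.1 CPM in wild type and 17.5, 16.7, 9.32 and 8.15 CPM in knockout. The other 3 wild-type libraries were nearly equal and above all knockouts, and the fold change of Bst2 was -0.82 ± 0.27 (SE, edgeR adjusted p = 0.182), or -0.65 without replicate 1. Rsad2, or viperin, which makes a chain-terminating nucleotide, stood at 7.22, 2.62, 2.34 and 3.29 CPM in wild type and 3.10, 2.75, 5.05 and 3.09 CPM in knockout. Mx1, a dynamin-like GTPase, stood at 3.55, 1.02, 0.809 and 0.945 CPM in wild type and 0.7403, 1.42, 1.26 and 0.683 CPM in knockout. For both Rsad2 and Mx1 the other 3 wild-type libraries overlapped the knockouts, and the fold changes turned from -0.15 to 0.35 and from -0.63 to 0.15 without replicate 1. Mx2 turned from -0.38 to 0.51. With effective gene length as an offset, Mx1 had a fold change of 0.0207 and Mx2 one of -1.28, so the direction and size of both also depend on that choice. Xaf1 stood at 13.8, 8.93, 9.48 and 8.64 CPM in wild type and 10.8, 10.3, 8.63 and 7.96 CPM in knockout, with a fold change of -0.11 ± 0.20 (SE, edgeR adjusted p = 0.795) and 0.07 without replicate 1. Rtp4 went from -0.73 to -0.27 and Ifi44 from -0.76 to -0.27. Ifi35 varied little within each group, at 29.6 ± 2.15 CPM in wild type and 24.3 ± 2.85 CPM in knockout (SD, n = 4 each). Its fold change was nearly the same with and without replicate 1, at -0.28 (edgeR adjusted p = 0.271) and -0.30.

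The guanylate-binding proteins are GTPases that attack the vacuoles of intracellular pathogens and respond strongly to interferon gamma. Gbp2, Gbp3 and Gbp7 had log2 fold changes of -0.12, -0.37 and 0.21, and of 0.16, 0.03 and 0.50 without replicate 1. By role, the medians with and without that library were -0.54 and -0.26 for factors and regulators, -0.89 and -0.71 for sensors, -0.50 and -0.08 for the Ifit family, and -0.97 and -0.53 for the Oas family. They were -0.51 and -0.10 for Mx and other effectors, -0.12 and 0.16 for guanylate-binding proteins, -0.56 and -0.57 for the Ifitm family, and -0.53 and -0.63 for the immunoproteasome.

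**Figure D4:**
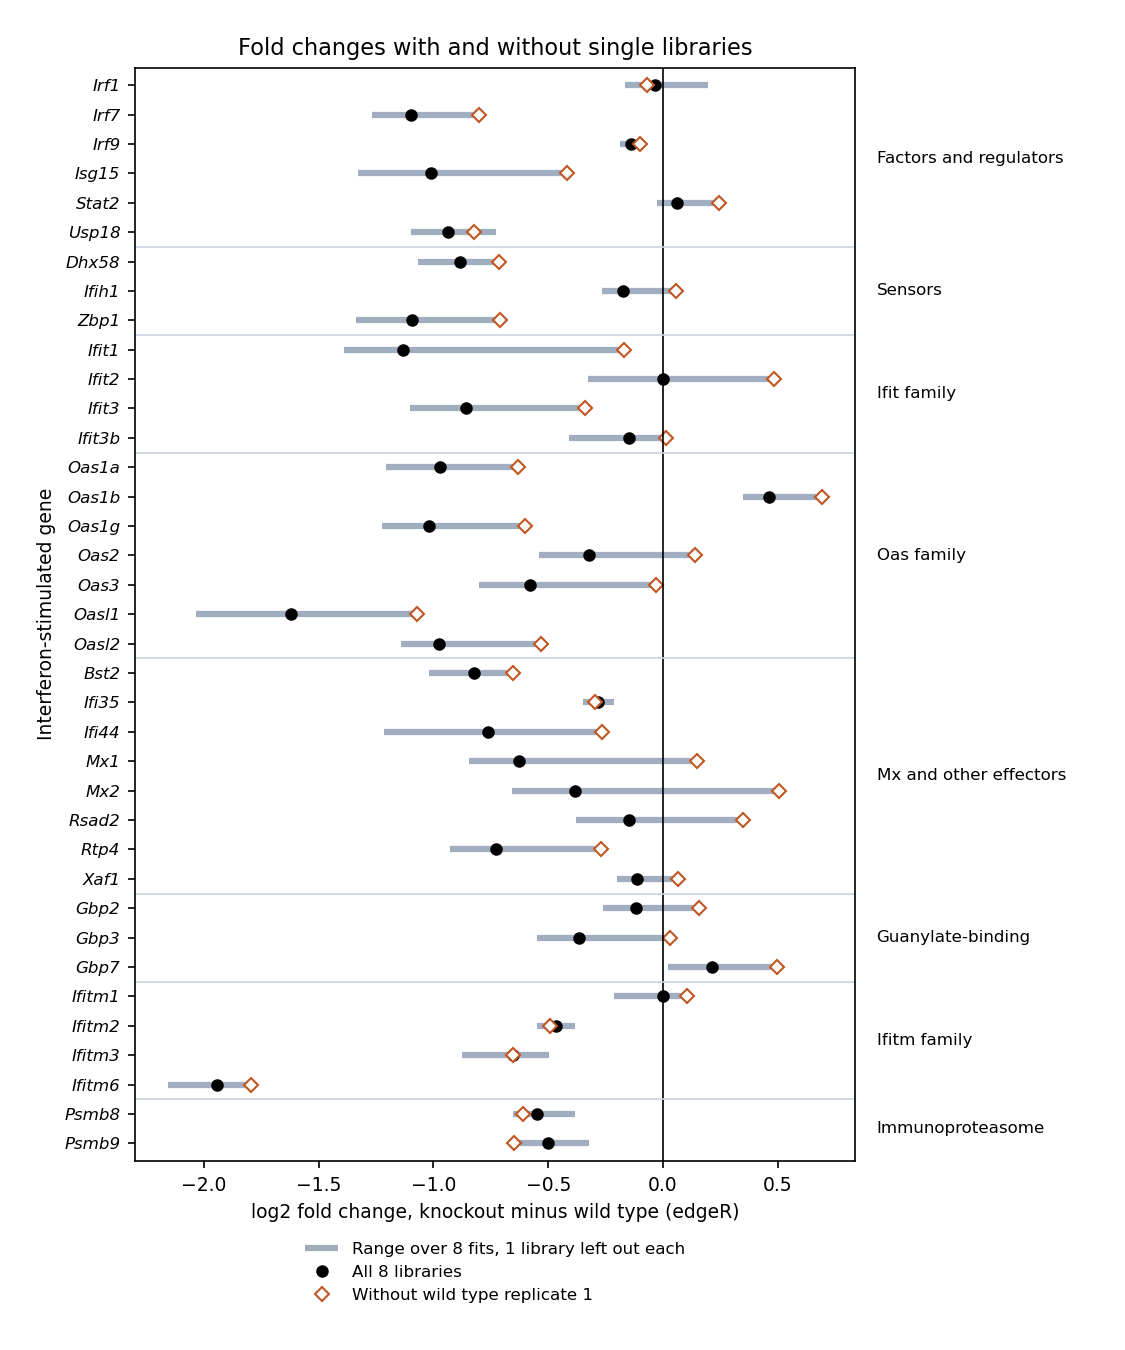
log2 fold change of each gene, knockout minus wild type, from edgeR with all 8 libraries (black), without wild type replicate 1 (open diamonds) and over the 8 fits that each left out 1 library (grey bars). The diamond marks the right end of the bar for most genes, and it lies near the black point for Ifitm2, Ifitm3, Ifi35 and Irf9.

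Members with a response element core in their promoter window had nearly the same median fold change as those without. It was -0.52 over the 16 with the core and -0.50 over the 13 without, and -0.10 and -0.30 when wild type replicate 1 was left out. Of the 16 with the core, 13 were highest in replicate 1, and of the 13 without, 8 were. Both Isg15 and Ifit1, with their repeated cores shown above, were among those highest there, as was Stat2 with its 1 core, while Ifitm2, also with 1 core, was not.

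Other parts of the interferon pathway were examined from further lists. No interferon gene was expressed enough to test: of 21 ligand genes, 16 had no count in any library and the largest sum over the 8 libraries for a single gene was 17. Of 16 genes for receptors and JAK-STAT signalling, 0 were called in edgeR, 5 were lower at an unadjusted p under 0.05 (against 9.37% of all genes), and the median log2 fold change was -0.24, or -0.13 without replicate 1. Ifnar1 and Ifnar2, which form the type I receptor, stood at 27.9 ± 4.85 and 20.2 ± 2.11 CPM in wild type and at 29.2 ± 4.43 and 14.9 ± 3.88 CPM in knockout (SD, n = 4 each), with fold changes of 0.07 and -0.44. The smallest p-values of this list were those of Socs3, a feedback inhibitor of cytokine signalling, Ifngr1, a chain of the interferon gamma receptor, and Il10rb, a chain of the type III receptor. Their fold changes were -1.99 ± 0.57, -0.52 ± 0.18 and -0.58 ± 0.22 (SE, edgeR adjusted p = 0.139, 0.192 and 0.221). Socs3 was highest in wild type replicate 3, at 472 CPM against 67.4 to 231 CPM in the other wild-type libraries.

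Of 21 tested genes for sensors, adaptors and other factors upstream of interferon, 0 were called in edgeR and 7 were lower at an unadjusted p under 0.05 (against 9.37% of all genes). The smallest p-values belonged to Myd88, the adaptor of most Toll-like receptors, Irf5, a factor acting below it, and Unc93b1, which carries these receptors to endosomes. Their fold changes were -0.57 ± 0.15, -0.57 ± 0.15 and -0.51 ± 0.17 (SE, edgeR adjusted p = 0.124, 0.125 and 0.188), and in Myd88 and Irf5, as in 5.65% of all genes, the knockout libraries all lay below the wild-type ones. The median of this sensing list, -0.23, was -0.21 without wild type replicate 1.

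A further list of 76 interferon-induced genes outside the 37 had 73 tested, of which 0 were called in edgeR and 22 were lower at an unadjusted p under 0.05 (against 9.37% of all genes). Their median log2 fold change was -0.27, or -0.18 without replicate 1, and 38 were highest in replicate 1 (against 16.3% of all genes) and 29 lowest in knockout replicate 4 (against 10.2%). The smallest p-values were those of Gbp11, Phf11b and Ly6e, with fold changes of -1.67 ± 0.41, -1.69 ± 0.42 and -0.53 ± 0.14 (SE, edgeR adjusted p = 0.104, 0.106 and 0.124). Gbp11 and Phf11b had low counts, with means of 1.41 and 1.61 CPM in wild type and 0.442 and 0.499 CPM in knockout. The estimated counts of both were not whole in any library, so their separate levels are uncertain. Ly6e, a membrane-anchored protein that blocks fusion of coronaviruses, was at 279 ± 29.7 CPM in wild type and 193 ± 22.0 CPM in knockout (SD, n = 4 each), and all its knockout libraries were below all wild-type ones (against 5.65% of all genes).

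The 5 genes outside the 37 whose log2(CPM + 1) followed the mean level of the members most closely over the 8 libraries, of 11995 with a mean of at least 5 CPM, were Phf11d, Loxl1, Pip5k1a, Arf2 and Ier5. Pearson's r was 0.982, 0.974, 0.971, 0.966 and 0.959, a description over 8 libraries that share the high value of replicate 1. Without that library r was 0.922, 0.986, 0.860, 0.924 and 0.805. Phf11d is itself on the further list of interferon-induced genes, and its estimated counts were not whole in any library. Loxl1, a lysyl oxidase of elastic fibres, was at 55.8 CPM in replicate 1 and 29.7 to 33.2 CPM in the other wild-type libraries, and at 16.5 to 27.2 CPM in knockout.

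Markers of other cells also differed between these libraries. The sum of 7 fibroblast markers was 3776 CPM in wild type replicate 1, against 935 to 1282 CPM in the other wild-type and 645 to 2005 CPM in the knockout libraries. Of these 7 markers, 5 were highest in replicate 1 and 5 were lowest in knockout replicate 4. Some other lists moved in part with the same libraries. Of 7 Langerhans cell and 7 mast cell markers, 5 each were highest in replicate 1. Knockout replicate 4 was the lowest for 6 of 7 adipocyte, 5 of 7 macrophage and 4 of 7 mast cell markers. It was the lowest for only 1 Langerhans cell marker, and replicate 1 was the highest for only 2 adipocyte and 3 macrophage markers. Keratinocyte, endothelial, T cell and skeletal muscle lists, of 7 each, had 2, 1, 0 and 0 markers highest in replicate 1. They had 0, 0, 1 and 0 lowest in knockout replicate 4. Of the Langerhans cell markers, 5 were lower at an unadjusted p under 0.05 in edgeR (against 9.37% of all genes), with a median log2 fold change of -0.76, and 0 were called. Adipocyte markers summed to 1780 to 2769 CPM in wild type and 1040 to 2890 CPM in knockout. The sum of 7 mast cell markers was 127 CPM in replicate 1, against 37.7 to 59.1 CPM in the other wild-type and 20.9 to 77.0 CPM in the knockout libraries, with Fcer1a at 0 in some libraries. For 7 monocyte markers it was 253 CPM against 81.2 to 113 and 46.7 to 179 CPM, with Chil3 and F10 among those at 0 in some. Of those 253 CPM, 223 came from Fn1, which fibroblasts also express. Macrophage markers spanned 162 to 255 CPM in wild type and 101.4 to 265 CPM in knockout. Langerhans cell markers spanned 855 to 1296 and 456 to 1151 CPM, and T cell markers 94.0 to 188 and 81.1 to 105 CPM. Keratinocyte marker sums did not overlap, at 15060 to 23474 and 9823 to 13900 CPM, with wild type replicate 3 highest and knockout replicate 3 lowest. All 7 keratinocyte markers had negative fold changes, with a median of -0.44, or -0.48 without replicate 1. Of these, 3 were lower at an unadjusted p under 0.05 in edgeR (against 9.37% of all genes) and 0 were called. Of the 7 T cell markers, 1 held 19424 counts over all libraries, most of the T cell sum. Plasmacytoid dendritic cells, a major source of type I interferon, had a marker sum of 288 CPM in replicate 1, against 149 to 540 CPM in the other wild-type and 368 to 746 CPM in the knockout libraries, with Klk1 at 0 in some. Siglech, their most specific marker on the list, was at 0.303 CPM in replicate 1 and at 0.185 to 1.39 CPM in the other 7 libraries. The plasmacytoid marker sum need not reflect these cells, as 1 gene held 69467 counts over all libraries and most of the sum. Like the skeletal muscle markers, that sum was lowest in wild type replicate 3 (149 CPM) and highest in knockout replicate 1 (746 CPM). Neutrophil markers summed to no more than 8.96 CPM in any library, with S100a8, Ly6g, Retnlg, Cxcr2 and Mmp8 at 0 in some, and natural killer cell markers to no more than 10.1 CPM, with Ncr1, Klrb1c, Gzma and Gzmb at 0 in some. Skeletal muscle markers ran from 10835 to 74615 CPM in wild type, with replicate 3 the lowest, and from 45477 to 81648 CPM in knockout, and hair matrix markers from 6.71 to 149.7 and from 6.99 to 1219 CPM, with knockout replicate 3 the highest. The part of these cells in the interferon-stimulated genes was not tested.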

How the data were processed

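Total RNA of dorsal skin was extracted with a Qiagen kit and made into libraries with a NEBNext Ultra RNA kit, per the labels' protocols. The kit does not mark strand. Among the tools in the submitters' processing notes are the aligner STAR (2.7.6a), the counter RSEM (1.31) and DESeq2, with GRCm38 as the build. The labels name Ensembl release 101. The deposited expected counts are RSEM's estimated reads per gene, unnormalized, which divide reads that match several genes. In each library 10.7% to 11.5% of genes held a value that was not whole (tolerance 0.005), and 18 of the 37 genes did so in some library. The deposited TPM values are, per the file headers, abundances that account for effective length, used here only to compare levels between genes. The deposited effective gene lengths entered 1 alternative. The authors also deposited a normalized signal matrix of 17382 genes, which the labels name as DESeq2's.

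After rounding, expected counts entered edgeR 4.0.16 under R 4.3.3 (filterByExpr with minimum count 10 and minimum total 15, TMM, robust quasi-likelihood F test, genotype as the only term, Benjamini-Hochberg adjustment over all genes tested). CPM are relative to the TMM-scaled library size, with a pseudocount of 1 in log2 means. DESeq2 1.42.0 was an alternative, as were other scalings, no filter, effective length as an offset, and leaving out libraries. The tests were tried on simulated data first. Symbols came from the authors' matrix and a reference name table, positions from GENCODE M21 on GRCm38, and promoters from RefSeq, searched by letters, with the stretches printed kept upstream of annotated exons. Values in every library are given for called members, members whose groups do not overlap, the 6 with the smallest p, the 6 most abundant, the 4 with the largest fold change, Irf7, Stat2 and Irf9, and members with a library far from its group. From the other interferon lists, the 3 smallest p in each were named, with Ifnar1, Ifnar2 and Ifngr1. One gene that this rule names is not reported here, though it stays in every test and count. The members and lists were chosen with earlier results of these data known. Replicate numbers are names in record order and pair nothing. The labels do not say that libraries came from different mice, so the spread behind each p-value may be technical. The limit of 3 counts covers counting error only, whereas the SD and SE also include the spread between libraries.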

Additional observations from a re-analysis of the deposited data

Results flagged for a closer look

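In 14 of 74 groups (37 genes in 2 genotypes), the highest or lowest of the 4 libraries lay far from the others by Dixon's test at the 95% level. For normally distributed values chance alone does so in about 1 of 20 groups, but CPM need not be distributed so. The share over all genes was not computed, so the 14 cannot be called more than other genes would give. In 9 of the 14 the library was wild type replicate 1, each time the highest. It held 19.5 CPM of Ifit1 (next wild-type library, 4.58), 16.1 CPM of Isg15 (6.35), 3.55 CPM of Mx1 (1.02), 35.7 CPM of Oasl2 (16.6) and 41.4 CPM of Stat2 (27.9). It also held 30.5 CPM of Bst2 (20.4), 24.5 CPM of Ifih1 (14.9), 13.8 CPM of Xaf1 (9.48) and 11.8 CPM of Zbp1 (5.54).

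The other 5 were spread over 4 libraries. Wild type replicate 3 was the highest of its group for Ifitm2, at 218 CPM (next, 177). Knockout replicate 3 was the highest for Rsad2, at 5.05 CPM (next, 3.10), and the lowest for Irf9, at 29.2 CPM (next, 32.1). Knockout replicate 2 was the highest for Ifitm1, at 5.66 CPM (next, 3.52), and knockout replicate 4 the lowest for Oasl2, at 7.05 CPM (next, 11.2). Genes of 1 pathway are not independent of each other, so these counts over genes are a description of the libraries.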

How the results depend on the processing

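The median log2 fold change of the 37 genes was negative under every alternative run. It ran from -0.65 to -0.27 when 1 library was left out. Without both wild type replicate 1 and knockout replicate 4, a pair chosen after seeing the data, it was -0.12, with 0 members called and 3 genes lower and 5 higher among all genes. In the authors' deposited matrix the median difference of log2(value + 1) was -0.50, or -0.30 without replicate 1, and 27 members were again highest in that library. DESeq2 called 648 genes lower, 346 higher and 4 members lower, where edgeR called 90, 20 and 1. With no filter on low counts 31 genes were higher and 0 members lower, and Ifitm6 had an adjusted p of 0.0546. Leaving out 1 library gave 3 to 147 genes lower, 5 to 23 higher and 0 to 1 members lower. Without both the library labelled wild type replicate 2 and knockout replicate 3, 149 genes and 0 members were lower, and Ifitm6 had an adjusted p of 0.0570. Over all alternatives that p ran from 5.43e-07 (DESeq2) to 0.263 (without wild type replicate 1 and knockout replicate 4). The cause of these changes was not tested.

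Some members changed sign, among them Ifit1, Mx1 and Oas3, whose fold changes were larger than the median of the list. Without 1 library, Ifit2 ran from -0.33 to 0.48, Ifit3b from -0.41 to 0.0127, Rsad2 from -0.38 to 0.35, Mx1 from -0.84 to 0.15, Mx2 from -0.66 to 0.51 and Oas2 from -0.54 to 0.14. Likewise Irf1 ran from -0.17 to 0.20, Stat2 from -0.0282 to 0.24, Ifih1 from -0.27 to 0.0547, Xaf1 from -0.20 to 0.0654, Gbp2 from -0.26 to 0.16, Gbp3 from -0.55 to 0.0310 and Ifitm1 from -0.21 to 0.10. Without wild type replicate 1 and knockout replicate 4, Ifit1 was 0.0155, Rsad2 0.40, Mx1 0.30, Mx2 0.60, Oas2 0.22, Oas3 0.0706, Ifih1 0.0807, Xaf1 0.14, Gbp2 0.19, Gbp3 0.13 and Ifitm1 0.17. Without wild type replicate 2 and knockout replicate 3, Ifit2 was -0.53, Stat2 -0.11 and Gbp7 -0.0209. Ifit2 was -0.0142 with RLE scaling and -0.0137 in DESeq2. Ifitm1 was 0.0208 with upper-quartile scaling, 0.0021 with no filter and 0.0639 with effective length as an offset, where Mx1 was 0.0207 and Mx2 -1.28. Low counts limit Mx1, Mx2, Oas1g, Oas3, Oasl1 and Ifi44, each with a knockout mean under 2 CPM.

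No paired analysis was possible because the labels give the genotypes no shared replicate numbers.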
